A study of Mus musculus with 52 samples.

Results

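Control clone 1 of growing, non-ciliated mouse Cilia-APEX-IMCD3 cells was compared with the other non-ciliated control clones, AB, 2 and 3. The members were taken by sample label: 4 libraries of clone 1 and 12 libraries of the other clones (4 each), which are 16 of the 52 libraries in the series. The study set base-edited Wdr34 and Wdr60 clones against such controls; both genes encode intermediate chains of dynein-2, the motor that carries cargo back from the tip of the cilium. IMCD3 is an immortalised epithelial line from the inner medullary collecting duct of the kidney, and the Cilia-APEX derivative carries a peroxidase reporter directed to the primary cilium. All 4 control clones carry the label of control genotype and of CRISPR base editing, and the methods describe 1 handling for controls, that of edited cells: transfection with the cytosine base editor BE4-Gam and a guide plasmid that lacked a target sequence, sorting of single cells, and outgrowth in medium with serum. By those methods each clone descends from 1 cell, and its 4 libraries are technical replicates according to the methods of the study. The titles give clone AB another prefix (AB_Co) than the other 3 clones (BE_Co), and whether it was made differently is not given in the sources used here. The p-values below measure the spread among libraries of 4 clones. With 1 clone against 3, an exact permutation of whole clones cannot give a p below 0.25.

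Cells of an established line differ from each other in chromosome content and in which genes are silenced, and outgrowth from a single cell fixes the state of that founder in a whole culture. Sister clones can then differ in transcripts without any edit in the gene under study, and control clones show how large such differences are. In the collecting duct, principal cells take up water and sodium while intercalated cells secrete acid or base.

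Library totals were 15617398 to 21085697 counts (16876645 to 21085697 in clone 1), and levels are given as CPM (library-size normalised counts), scaled between libraries by the trimmed mean of M-values (TMM). At 1 CPM a library held 16.1 to 20.8 counts. Library AB R1 stood apart from its clone: it correlated with the other AB libraries at 0.9708 to 0.9744 on log2 CPM, and the chi-square per degree of freedom of its pairs was 76.5 to 86.2, where all other pairs within a clone gave 1.99 to 6.71. The line's label was checked on markers. Tfcp2l1, a collecting duct transcription factor, was at 82.9 to 93.5 CPM in clone 1 and 55.3 to 105 CPM in the others, and Cdh16, the kidney cadherin, was at 197 to 212 and 210 to 275 CPM. Of the differentiated duct genes, Aqp2 (the vasopressin-regulated water channel), Kcnj1, Slc14a2 and the intercalated cell factor Foxi1 had 0 counts in all 16 libraries. Others were detected. Nr3c2 was at 3.35 to 4.42 CPM in clone 1 and 1.74 to 7.53 CPM in the others, and Car2 at 7.74 to 10.4 and 5.08 to 18.5 CPM. The summed level of 11 fibroblast markers was 2.71 to 4.46 CPM in clone 1 and 3.86 to 14.4 CPM in the others. Col3a1, Thy1 and Tcf21 were at 0 throughout. Col1a1 was detected, at 2.4 to 4.09 and 3.01 to 6.18 CPM, and Postn was at 0 to 0.433 and 0 to 7.94 CPM. For 12 immune markers the sums were 27.3 to 29.6 and 22.6 to 58.6 CPM, mostly Csf1r, with Adgre1, Itgam and Cd3e at 0. Cd68 was at 1.42 to 2.79 and 2.44 to 6.44 CPM. Of 6 podocyte markers, Podxl was at 119 to 134 and 26.4 to 130 CPM and Synpo at 24.4 to 28.4 and 10.6 to 93.6 CPM, with Nphs1 at 0. In bulk libraries, fewer cells that express a gene and less RNA per cell cannot be told apart.

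Most genes called between clone 1 and its pooled sister clones were lower in it. Of 12327 genes tested with the 2-sided edgeR quasi-likelihood test, 269 (2.18%) were called, which required a Benjamini-Hochberg adjusted p under 0.05 together with a change of 1 log2 unit or more. Among them 33 (0.268%) were higher and 236 (1.91%) lower in clone 1, and 10 of the higher and 54 of the lower genes differed at least 4-fold. The median log2 fold change of all genes tested was -0.045. When each clone was given a mean of its own and clone 1 was set against the average of the other 3, 282 genes were higher and 383 lower, so the share of lower calls went from 87.7% to 57.6%.

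These counts depend on the libraries and clones that enter. Without clone 1 library R2, R3 or R4, 148, 150 or 152 genes were lower. Without clone AB, 2 or 3, the counts were 70 higher and 293 lower, 140 and 536, and 102 and 363. Without library AB R1 they were 40 and 249, with 252 genes shared with the 269. With the libraries of each clone summed, so that the clone was the sample, edgeR called 0 genes (139 of 13808 at an unadjusted p under 0.05, 1.01%). With limma's voomLmFit and the clone as a block it was also 0 (502 of 12327 at an unadjusted p under 0.05, 4.07%), at a correlation of 0.756 between libraries of a clone. DESeq2 on libraries called 52 higher and 388 lower. Each adjusted p below is thus a statement about these libraries.

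**Figure D1:**
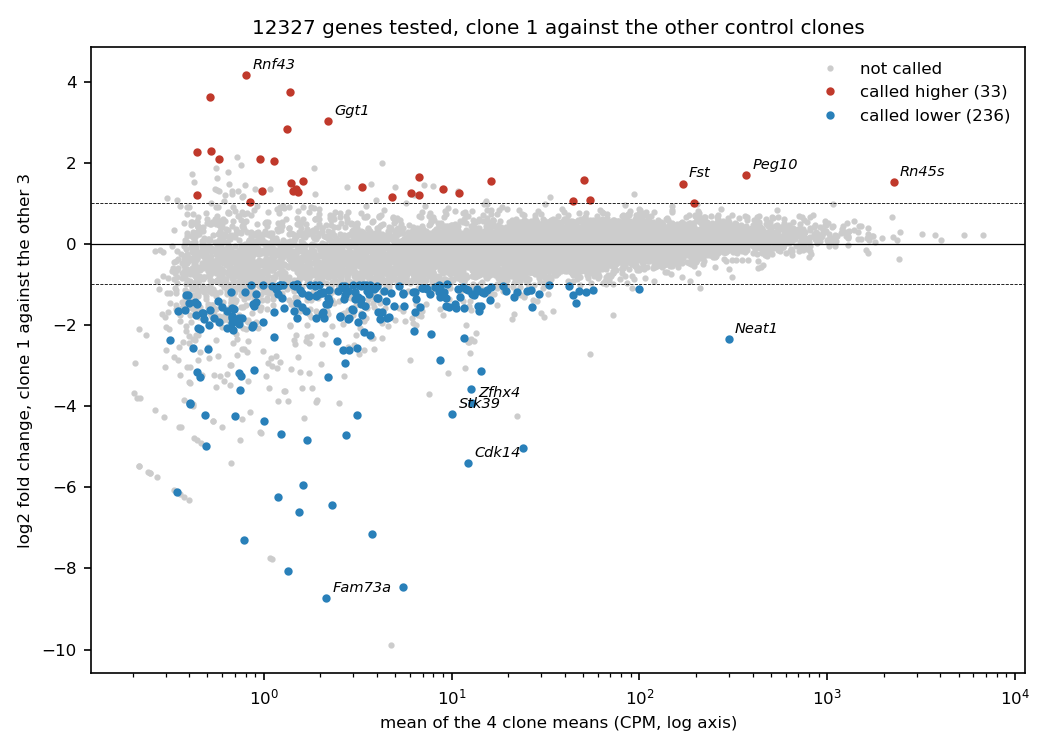
Each point is 1 of the 12327 genes tested. The x axis is the mean of the 4 clone means in CPM (log axis), the y axis the log2 fold change of clone 1 against the other 3 clones, dashed lines mark 1 and -1, and the 33 higher and 236 lower calls are coloured; lower calls gather at low levels on the left.

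Calls were concentrated among weakly expressed genes. Of 883 genes with an average under 1 CPM over the 4 clones, 6.68% were lower and 1.02% higher, and their median log2 fold change was -0.63. From 1 to 10 CPM, 133 of 2109 genes (6.31%) were lower and 15 higher. Above 100 CPM, 1 of 2801 genes was lower (Neat1) and 4 were higher, with a median of 0.095. In 119 of the 236 lower genes the clone 1 mean was under 1 CPM.

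The genes with higher transcript in clone 1 included a brush border enzyme, an imprinted gene, an activin antagonist and chemokines. Ggt1 (chr10:75561076-75586193) encodes gamma-glutamyltransferase, which breaks down extracellular glutathione and is best known from the proximal tubule. Its level was 6.76, 6.56, 5.7 and 6.65 CPM in clone 1 libraries R1 to R4 and 0.424 to 1.2 CPM (median 0.732) in the 12 other libraries. All 4 clone 1 libraries lay far above the others, with a log2 ratio of 3.03 (SE 0.21, adjusted p = 7.82e-07, edgeR quasi-likelihood test with Benjamini-Hochberg adjustment, as for every adjusted p from here on). The non-ciliated mutant clones were at 0.131 (Wdr34) and 0.264 CPM (Wdr60), so clone 1 was the highest of 6 non-ciliated clones. Of 5 proximal tubule genes tested, Ggt1 was the 1 called (20%, beside 2.18% of all genes) and 3 were positive. With each clone as its own group 3 were called higher and 1 lower. Without clone AB the calls were 1 and 1, and without clone 2 or clone 3 they were 2 and 0. The endocytic receptor Cubn was at 20.1 to 25.3 against 10 to 18.5 CPM and missed the size limit (log2 fold change 0.58, edgeR adjusted p = 0.00924). The water channel Aqp1 was at 2.43 to 3.29 CPM against 0.507 to 30.5 CPM (median 16.8) (log2 fold change -2.41, edgeR adjusted p = 0.124) and the receptor Lrp2 at 78.5 to 107 against 7.47 to 278 CPM, both inside the range of the others.

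Peg10 (chr6:4747306-4760517), a retrotransposon-derived gene that is imprinted in mammals, was at 792, 707, 775 and 793 CPM in clone 1 against 74.1 to 359 CPM (median 246). The groups did not overlap, and the others were graded, with means of 123 ± 33.6 CPM in clone AB (SD, n = 4), 249 ± 15.7 in clone 2 and 341 ± 16.6 in clone 3. The log2 ratio of clone 1 to the others was 1.69 (SE 0.29, edgeR adjusted p = 0.00165). Peg10 was the 1 call among 18 imprinted genes tested (5.56%, beside 2.18% of all genes). Without clone AB (17 tested) 2 imprinted genes were higher and 2 lower. The counts were 1 and 1 without clone 2, and 2 and 1 with each clone as its own group. Fst (chr13:114452262-114458989) encodes follistatin, which binds activins, and was at 323, 329, 323 and 332 CPM against 57.8 to 162 CPM (median 132). Its clone 1 libraries were close together and all above the rest, with a log2 ratio of 1.48 (SE 0.24, edgeR adjusted p = 0.00117). Fst was the 1 call among 29 BMP and TGF-beta genes (3.45%, beside 2.18% of all genes). With each clone as its own group 5 were higher, and without clone 2, 7 were higher and 1 lower.

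A pair of chemokine genes that lie near each other on chromosome 5 were higher. Ppbp (chr5:90768518-90770063), which encodes the CXC chemokine CXCL7, was at 98.1, 109, 97.5 and 99.4 CPM in clone 1 and 13.6 to 54 CPM (median 36.8) in the others. The groups were apart, and clone 2 was lowest at 15.2 ± 1.47 CPM. Its log2 fold change was 1.57 (SE 0.32, edgeR adjusted p = 0.00488). Cxcl5 (chr5:90759298-90761625), a neutrophil-attracting chemokine, was at 19.1, 15.7, 13.3 and 17.8 CPM against 1.93 to 10.3 CPM (median 7.46), again without overlap. Its log2 fold change of 1.34 (edgeR adjusted p = 0.0266) passed narrowly, and the call was lost on leaving out any 1 clone 1 library. Of 15 cytokine genes on the list (which holds Cxcl5 but not Ppbp), it was the 1 call (6.67%, beside 2.18% of all genes); with each clone as its own group 6 were higher and 1 lower, and without clone AB 0 and 1. Il1rl1, the receptor for interleukin 33, was at 12.7, 12.4, 13.1 and 16.5 CPM against 2.29 to 6.22 CPM (median 4.62), with all of clone 1 above the rest and a log2 ratio of 1.65 (SE 0.20, edgeR adjusted p = 8e-05).

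**Figure D2:**
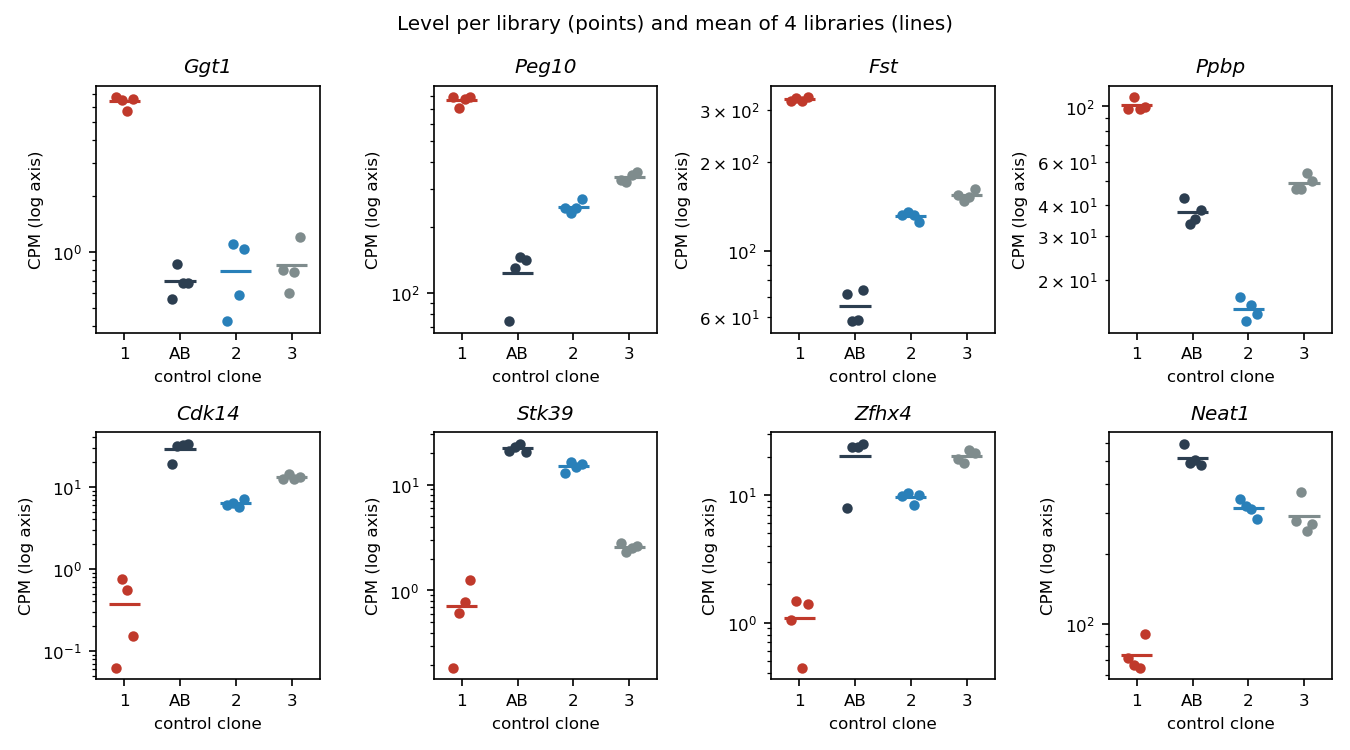
Each panel shows 1 gene in CPM (log axis) in the 16 libraries, as points by control clone with a line at the mean of 4. Clone 1 lies above the 12 other libraries for Ggt1, Peg10, Fst and Ppbp and below them for Cdk14, Stk39, Zfhx4 and Neat1.

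The other higher genes named by size were spread over several functions. Fam65b was at 29 to 35.4 against 4.98 to 19.8 CPM, Vgf, a neuropeptide precursor, at 17.8 to 20.7 against 5.75 to 10.5 CPM, and Cbln1, a secreted synapse organiser, at 5.33 to 7.06 against 1.89 to 2.86 CPM. Aldh1a2, which makes retinoic acid, was at 85.9 to 97.5 against 30.4 to 63.1 CPM, with clone 2 the nearest at 60.5 ± 2.26 CPM. Bdh1, a ketone body enzyme, was at 10.4 to 13.2 against 2.28 to 7.34 CPM, Fbxo17 at 6.64 to 9.19 against 1.45 to 5.4 CPM, and Trp53i11 at 70.4 to 76.2 against 23.7 to 43.3 CPM. None of these ranges overlapped, and the log2 fold changes ran from 1.05 (Trp53i11) to 1.56 (Fam65b). Without clone AB the calls of Bdh1 and Aldh1a2 were lost, without clone 2 that of Fbxo17, and without clone 3 those of Aldh1a2 and Trp53i11. E2f6, a repressor of the E2F family, was at 9.99 to 11.4 against 3.36 to 6.27 CPM, but the mutant clones lay on either side, at 0.435 (Wdr34) and 19.5 CPM (Wdr60). Fam65b averaged 35.6 CPM in the Wdr34 mutant clone, above the 32.2 CPM of clone 1, and 7.74 CPM in the Wdr60 clone.

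Some genes were low in clone 1 and lower still, or nearly silent, in the other clones. Rnf43, a ubiquitin ligase that removes Frizzled receptors from the surface, was at 1.98, 2.6, 3.04 and 3.45 CPM in clone 1 and 0 to 0.436 CPM (median 0.0284) in the others. No library overlapped, and the log2 ratio of clone 1 to the others was 4.15 (SE 0.73, edgeR adjusted p = 0.00196). Acta2, smooth muscle actin, was at 3.84, 5.38, 3.76 and 2.05 CPM against 0.0485 to 1.19 CPM (median 0.519), also without overlap (log2 fold change 2.83, SE 0.39, edgeR adjusted p = 0.000324), and it was the 1 call among 14 mesenchymal genes (7.14%, beside 2.18% of all genes; 3 higher with each clone as its own group). Chosen after their values were seen, Car13, a carbonic anhydrase, was at 3.82 to 5.02 against 0 to 0.63 CPM, Lypd6b at 1.35 to 1.92 against 0 to 0.337 CPM, and the hyaluronan synthase Has2 at 2.17 to 3.04 against 0.0979 to 1.66 CPM. The Has2 call was lost without clone 1 library R1.

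Among the lower genes named by size, which had at least 5 CPM in the other clones and no overlap, kinases and a homeobox factor had the largest differences. Cdk14 (chr5:4803384-5380251), a cyclin-dependent kinase with a role in Wnt receptor activation, was at 0.062, 0.743, 0.553 and 0.15 CPM in clone 1 and 5.62 to 33.6 CPM (median 12.8) in the others. Its highest clone 1 library held less than the lowest of the 12, and the others were themselves spread, with 29 ± 6.86 CPM in AB, 13.1 ± 0.84 in clone 3 and 6.27 ± 0.667 in clone 2. The log2 ratio of clone 1 to the others was -5.41 (SE 0.77, edgeR adjusted p = 0.000388). Stk39 (chr2:68210445-68472108) encodes SPAK, a kinase that activates sodium and potassium chloride cotransporters, and was at 0.186, 0.619, 0.774 and 1.25 CPM against 2.31 to 24.3 CPM (median 15.3). The groups did not overlap, but clone 3 (2.56 ± 0.204 CPM) was much nearer to clone 1 than AB (22.1 ± 1.8) or clone 2 (15 ± 1.63). Its log2 fold change was -4.19 (SE 0.84, edgeR adjusted p = 0.00472), and the Wdr60 mutant clone was also low, at 0.49 CPM.

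Promoter windows are shown for 2 genes that led the lower group and 2 of the higher group, each with 1 listed start. They span 250 bases before to 50 bases after the RefSeq start (GRCm38.p6) and read 5′ to 3′ on the gene's strand. Capitals mark matches on either strand to TATAAA (the TATA box), GGGCGG (the GC box), TGACGTCA (the cyclic AMP response element), CACGTG (the E-box) or TGAGTCA (the AP-1 motif).
Cdk14: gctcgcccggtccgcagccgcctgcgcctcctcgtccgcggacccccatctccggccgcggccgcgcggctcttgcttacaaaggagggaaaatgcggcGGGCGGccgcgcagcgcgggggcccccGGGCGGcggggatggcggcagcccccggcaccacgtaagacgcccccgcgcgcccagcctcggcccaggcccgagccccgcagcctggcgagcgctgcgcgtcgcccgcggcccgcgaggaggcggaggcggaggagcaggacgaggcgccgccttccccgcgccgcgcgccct
Stk39: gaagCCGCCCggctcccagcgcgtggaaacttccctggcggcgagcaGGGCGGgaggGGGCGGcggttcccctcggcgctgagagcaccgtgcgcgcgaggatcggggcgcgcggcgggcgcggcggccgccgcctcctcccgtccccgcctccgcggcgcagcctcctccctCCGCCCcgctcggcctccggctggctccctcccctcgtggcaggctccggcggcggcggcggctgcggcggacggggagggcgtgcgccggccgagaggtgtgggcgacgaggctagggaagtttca
Ppbp: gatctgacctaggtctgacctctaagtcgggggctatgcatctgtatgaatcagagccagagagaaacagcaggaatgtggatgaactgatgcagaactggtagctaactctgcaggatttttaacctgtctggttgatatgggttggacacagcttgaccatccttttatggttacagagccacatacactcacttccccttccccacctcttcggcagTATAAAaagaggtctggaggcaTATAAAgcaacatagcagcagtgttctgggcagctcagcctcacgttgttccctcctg
Acta2: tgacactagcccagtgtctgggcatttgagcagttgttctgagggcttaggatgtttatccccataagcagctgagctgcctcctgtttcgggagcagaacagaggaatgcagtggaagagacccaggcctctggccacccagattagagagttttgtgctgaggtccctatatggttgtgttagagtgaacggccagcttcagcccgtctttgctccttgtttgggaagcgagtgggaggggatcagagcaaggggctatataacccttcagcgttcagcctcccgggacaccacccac
The windows are chr5:5380202-5380501 (minus strand), chr2:68471932-68472231 (minus strand), chr5:90768268-90768567 (plus strand) and chr19:34255324-34255623 (minus strand). Cdk14 and Stk39 held GGGCGG, Ppbp held TATAAA, and Acta2 held none of the 5 motifs. A window was listed for 14 of the 33 higher and 181 of the 236 lower genes. TATAAA was found in 4 of the former (28.6%), in 6.63% of the latter and in 6.41% of 9332 tested genes with a window. GGGCGG was found in 2 (14.3%), 58% and 66.4%. The other motifs were in 0 of the higher windows and in 2.21% (TGACGTCA), 8.29% (CACGTG) and 6.08% (TGAGTCA) of the lower, against 3.49%, 10.4% and 3.46% of all. These are matches of letters, given as a description.

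Zfhx4 (chr3:5218218-5415861), a zinc finger homeobox factor, was at 1.05, 1.49, 0.442 and 1.4 CPM in clone 1 against 7.97 to 25.2 CPM (median 18.5). Clone 1 was below every other library, the nearest being AB R1, and the mutant clones were high, at 21.1 (Wdr34) and 25.6 CPM (Wdr60). The log2 ratio of clone 1 to the others was -3.92 (SE 0.46, edgeR adjusted p = 6.82e-05). Neat1 (chr19:5824708-5845480), the long RNA on which nuclear paraspeckles form, was the most abundant of the lower genes named, at 71.1, 66.5, 64.5 and 90.3 CPM against 250 to 594 CPM (median 332). No library overlapped, and the log2 ratio of clone 1 to the others was -2.35 (SE 0.25, edgeR adjusted p = 2.97e-05). The Wdr34 mutant clone was at a like level, 85.9 CPM.

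Fzd1 (chr5:4753839-4758216), a Frizzled receptor gene close to Cdk14, was at 2.6, 2.72, 3.15 and 3.05 CPM against 3.42 to 34.4 CPM (median 9.16). Clone 2 (3.91 ± 0.398 CPM) was close to clone 1 while AB was at 30.2 ± 4.33, and the call (log2 fold change -2.33, edgeR adjusted p = 0.039) was lost on leaving out any 1 clone 1 library. Prune2 was at 1.1 to 1.55 against 1.71 to 45 CPM, with clone 3 highest (40.9 ± 3.86 CPM). Its call was lost on leaving out any 1 library of clone 1 or of clone 3 but held without the whole of clone 3, where the log2 fold change went from -3.59 to -1.58 (edgeR adjusted p = 0.0295). Cnih2, an AMPA receptor auxiliary protein, was at 1.18 to 2.6 against 3.3 to 15.9 CPM and Tle2, a Groucho-type co-repressor, at 3.9 to 5.59 against 7.94 to 26.9 CPM, both highest in clone 2. Cnih2 lost its call without clone 1 library R2, R3 or R4 and Tle2 without R2 or R4 or without clone 2. Pdlim1, an actin-associated LIM protein, was at 4.87 to 6.32 against 10.6 to 35 CPM and highest in AB.

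More even among the other clones were Rapgefl1 (1.42 to 3.04 against 6.25 to 9.16 CPM), the sorting nexin Snx32 (1.18 to 2.15 against 3.71 to 6.71 CPM), the adaptor Sh2d3c (1.4 to 2.1 against 3.66 to 7.67 CPM) and Rasgef1b (3.53 to 5.05 against 8.74 to 17 CPM). Their log2 fold changes lay between -1.80 and -1.58, and all 4 kept their call in every setting tried other than the 2 that took the clone as the unit. Ddit3, the stress-induced transcription factor CHOP, was at 12.2, 11.3, 10.2 and 9.79 CPM against 18.1 to 66.7 CPM (median 27.2). Clone 1 was below all others, with AB highest at 51.1 ± 12.2 CPM, and the log2 ratio of clone 1 to the others was -1.57 (SE 0.35, edgeR adjusted p = 0.00872). It was the 1 call of 34 ER stress and Atf4 genes (2.94%, beside 2.18% of all genes, with 4 lower without clone 2 and 6 without clone 3), whose chaperone Hspa5 was instead at 1290 to 1330 against 866 to 1120 CPM (log2 fold change 0.41, edgeR adjusted p = 0.00117).

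**Figure D3:**
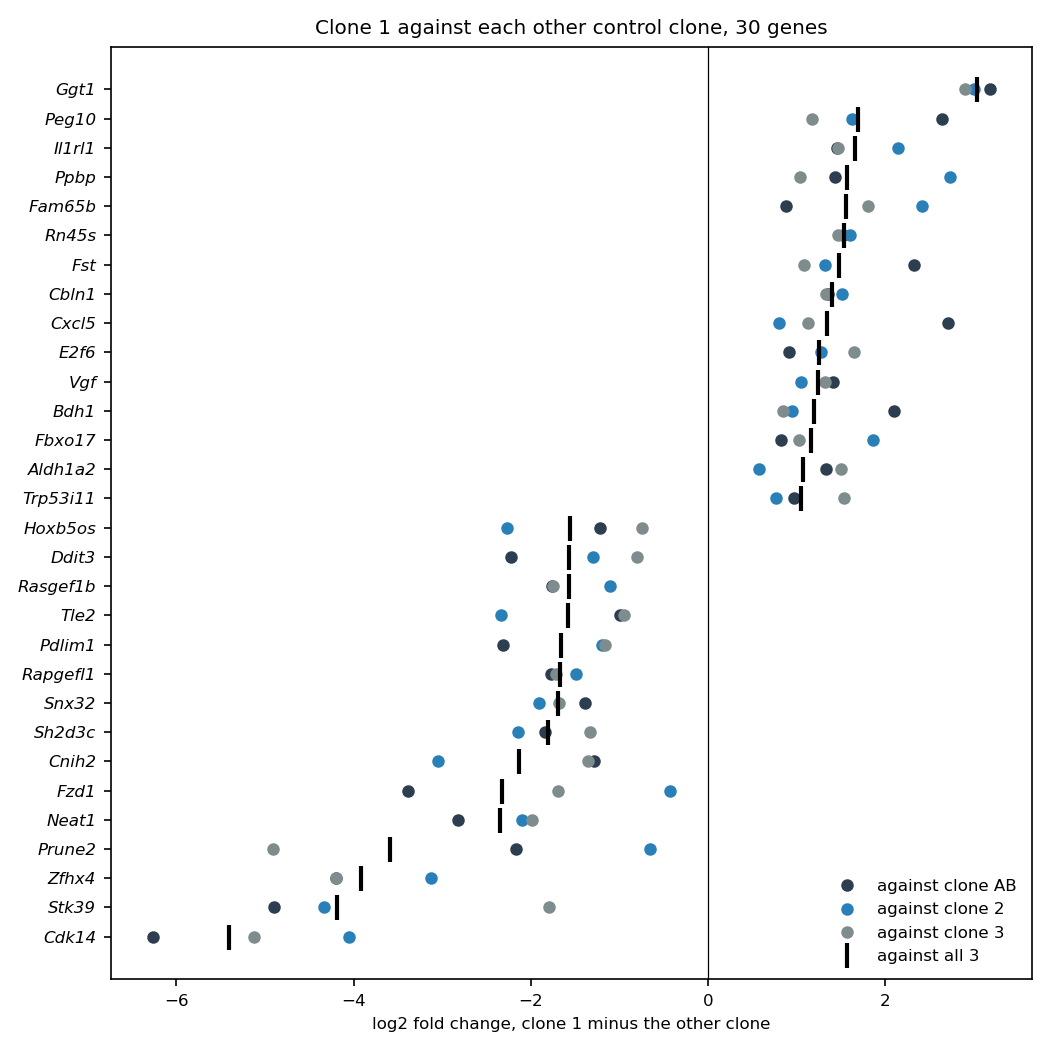
The 30 genes named by size are on the y axis. Points give the log2 fold change of clone 1 against clone AB, 2 or 3 and the black bar that against all 3; all 90 points have the sign of their bar, close together for Rn45s and Cbln1 and far apart for Prune2, Stk39 and Fzd1.

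A few genes had no count at all in clone 1 (chosen after their values were seen). Fam73a, which encodes a mitochondrial outer membrane protein, had 0 counts in the 4 clone 1 libraries and 14 to 88 counts in each of the others. Set against a floor of 3 counts over the 4 libraries, it was at least 67.3-fold lower. Cxx1a and Cxx1b, near-identical genes on chromosome X whose reads the counting could have split, were at least 42-fold and 24.5-fold lower. Adrb3, the beta-3 adrenergic receptor, was at least 10.8-fold lower, with 0 to 18 counts in the others. Fam73a was low in the mutant clones as well (0.144 and 0.0448 CPM), while Cxx1a was at 0 in the Wdr34 clone and 4.48 CPM in the Wdr60 clone.

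Against the pooled other controls clone 1 had the fewest higher calls of the 4 clones. In contrasts within a fit of 4 clone means, 395 genes were higher (3.20%) and 888 lower (7.20%) in clone 1 than in AB, 898 (7.28%) and 819 (6.64%) than in clone 2, and 260 (2.11%) and 584 (4.74%) than in clone 3. Called against each of the 3 clones were 19 genes higher (0.154%) and 90 lower (0.73%); the contrasts share the clone 1 libraries. Put in clone 1's place against the remaining controls, AB gave 383 higher (3.11%) and 364 lower (2.95%), clone 2 gave 552 (4.48%) and 1034 (8.39%), and clone 3 gave 145 (1.18%) and 175 (1.42%). Clone 1, at 33 and 236, had fewer lower calls than AB and clone 2 and more than clone 3.

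In 178 of the 269 called genes (28 higher, 150 lower) no clone 1 library overlapped the others, beside 1320 of all genes tested (10.7%). Of those 1320, 706 had all clone 1 libraries above the others and 614 below, so that without the size limit and the test the split was not toward lower genes. In the other 86 lower genes the ranges of both groups overlapped, and the highest clone was AB for 30, clone 2 for 32 and clone 3 for 24. Dpysl5 averaged 0.97 CPM in clone 1 and 0.317 in clone 2, but 43.2 in AB and 51.5 in clone 3. Against the means of the 5 other non-ciliated clones, mutants included, 188 called genes lay outside the range (28 above, 160 below), as did 3087 of the genes tested (25%). The 2 mutant clones against the controls gave 59 higher (0.491%) and 309 lower (2.57%) genes with clone 1 among the controls, and 58 (0.486%) and 300 (2.51%) without it.

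Among signalling lists, Wnt and Notch genes held 2 calls each, 1 in each direction. Without clone 2 there were 2 higher and 4 lower Wnt genes and 1 higher and 2 lower Notch genes. Of 24 Wnt genes tested, Rnf43 was higher and Fzd1 lower, with a median log2 fold change of -0.11 (-0.21 to -0.031 on leaving out 1 of the other clones); the share called was 8.33%, beside 2.18% of all genes. Of 13 Notch genes, the target Hey1 was higher and the ligand Jag2 lower (15.4% called, median -0.058, and -0.21 to -0.13 on leaving out 1 of the other clones). Jag2 was at 1.18, 0.743, 0.719 and 1.2 CPM against 2.55 to 7.04 CPM (median 4.66), without overlap and with a log2 ratio of -2.25 (SE 0.30, edgeR adjusted p = 0.00022). Hey1 was at 2.48, 3.34, 2.27 and 2.75 CPM against 0.366 to 2 CPM (median 0.721), also without overlap (1.50, edgeR adjusted p = 0.0177), and the Hey1 call was lost without clone 1 library R2 or R4. Jag1, the more abundant ligand gene, was at 183 to 188 CPM, inside the 34.2 to 305 CPM of the others. Of 26 growth factor genes, Fgf9 was the 1 called (3.85%, beside 2.18% of all genes) and was lower. It had 1 count in the 4 clone 1 libraries and means of 0.883 ± 0.226 CPM in AB, 0.0579 ± 0.116 in clone 2 and 1.01 ± 0.142 in clone 3. Its call was lost on leaving out any 1 clone 1 library. The growth factor list had 1 higher and 5 lower genes with each clone as its own group, 2 and 4 without clone 2, and 0 and 0 without clone 3. The 9 Hedgehog genes tested held 0 calls, beside 2.18% of all genes. They had a median of -0.026 and 0 at an adjusted p under 0.05 (edgeR). Their median was -0.20 without clone AB and 0.32 without clone 2, and 1 was higher without clone 2 or with each clone as its own group.

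Of 41 axon guidance genes, 3 were lower (7.32%) and 0 higher, beside 1.91% lower and 0.268% higher of all genes. With each clone as its own group 5 were lower and 5 higher, and without clone AB 3 and 2. Sema3b and Sema4g, which encode semaphorins, were at 5.07 to 7.85 against 11.7 to 15.7 CPM and 3.15 to 5.33 against 5.97 to 11.9 CPM; the Sema4g call was lost without clone 1 library R3, clone AB or clone 2. Slit2, a Robo ligand, was at 1.73 to 2.54 CPM, like clone 2 (2.07 ± 0.38) and unlike AB (25.3 ± 6.69) and clone 3 (28 ± 1.7). Cdh13 had 1 count in the clone 1 libraries, but AB was at 0 as well, with 1.39 ± 0.461 CPM in clone 2 and 4.71 ± 0.707 in clone 3. The tight junction gene Cldn1 was at 22.9 to 23.8 CPM, level with AB (26.2 ± 2.99) and below clone 2 (63.4 ± 1.63) and clone 3 (54.8 ± 3.69). Slit2, Cdh13 and Cldn1 each lost their call on leaving out any 1 clone 1 library. Lamc3, a laminin chain, was higher at 1.55 to 1.98 against 0.174 to 1.54 CPM, a call lost in 21 of 30 settings. Pcdhga12, a clustered protocadherin, was at 0.186 to 0.35 against 0.249 to 1.4 CPM, with overlap, and lost its call on leaving out any 1 clone 1 library.

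Further calls fell in lists of kidney and signal genes. Of 6 principal cell genes tested, 1 was lower (16.7%, beside 2.18% of all genes; 2 without clone 2 and 2 without clone 3). Hsd11b2, which inactivates glucocorticoids in principal cells, was at 0.31, 0.248, 0.111 and 0.35 CPM against 0.512 to 1.62 CPM (median 1.02), without overlap (log2 fold change -2.04, SE 0.42, edgeR adjusted p = 0.00568). Ptgds, a prostaglandin D synthase, was at 0 to 0.0619 against 0.0606 to 1.15 CPM and the 1 call of 10 prostaglandin genes (10%, beside 2.18% of all genes). With each clone as its own group 1 prostaglandin gene was higher and 1 lower. The counts were 2 and 2 without clone 2, and 0 and 0 without clone 3, where 9 were tested. Ptgds lost its call without clone 1 library R4. Parp14 was the 1 call of 30 interferon-stimulated genes (3.33%, beside 2.18% of all genes), lower at 1.61 to 2.48 against 2.59 to 7.71 CPM. The call was lost in 21 of 31 settings. With each clone as its own group 3 genes of that list were higher and 3 lower.

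The lists of dynein-2, intraflagellar transport, BBSome and transition zone genes held 1 call. Wdr34 was at 20.3, 25, 20.1 and 19.9 CPM in clone 1 and 22.6 to 40.6 CPM (median 25.8) in the others, which overlap (log2 fold change -0.36, edgeR adjusted p = 0.0819). Wdr60 was at 19, 18.3, 21 and 20.3 CPM, below all of the others at 23.1 to 26.8 CPM (median 25), but its log2 fold change of -0.35 (SE 0.063, edgeR adjusted p = 0.00233) missed the size limit. Of 10 dynein-2 genes 0 were called, and of 26 BBSome and transition zone genes also 0, with 1 and 4 at an adjusted p under 0.05, which 12.3% of all genes had. The largest of these was Tctn1, a transition zone gene, at 16.4, 15.8, 17.2 and 14.3 CPM against 23.6 to 37.2 CPM (median 29.2), without overlap (log2 fold change -0.87, edgeR adjusted p = 0.000271). Of 23 intraflagellar transport genes 1 was lower, Ttc30a1, at 0.99 to 1.77 against 1.54 to 5.18 CPM (4.35%, beside 2.18% of all genes); it has near-identical copies that the counting could have split, and its call was lost without clone 1 library R2 or R4 or without clone AB.

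Several lists had medians above both the -0.045 of all genes and the 0.095 of genes over 100 CPM, with few or no calls. YAP and SRF targets, many of which build or tether the actin cytoskeleton, had a median of 0.40, with 21 of 24 positive. Of them 0 were called, beside 2.18% of all genes. Without clone AB the median was 0.23, and 2 genes were called higher without clone 3. In 10 of the 24 every clone 1 library was above the others, beside 5.73% of all genes, and 7 had an adjusted p under 0.05, beside 12.3%. Vcl, vinculin, was at 350, 363, 367 and 385 CPM against 165 to 272 CPM (median 256), without overlap (log2 fold change 0.56, edgeR adjusted p = 0.00123). F3, tissue factor, was at 157 to 166 against 78.2 to 131 CPM (0.70) and Flna, filamin A, at 1430 to 1550 against 638 to 1290 CPM (0.44).

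Heat shock genes had a median of 0.20, and in 6 of 18 clone 1 was above all others, again beside 5.73% of all genes. Hspb1, a small heat shock protein, was at 705 to 821 against 296 to 591 CPM, and Hspa8 at 1300 to 1380 against 762 to 1210 CPM. Immediate early genes, which growth factors switch on within minutes, had a median of 0.23, with 7 of 26 above. The ERK phosphatase gene Dusp6 was at 218, 226, 222 and 224 CPM against 80.5 to 160 CPM (median 138), without overlap (log2 fold change 0.83, edgeR adjusted p = 0.00787). Hbegf, an EGF receptor ligand from the growth factor list and not the immediate early list, was at 287 to 313 against 148 to 222 CPM (0.76). Egr3 was the 1 call of the immediate early list (3.85%, beside 2.18% of all genes; 4 were higher without clone 3) and was lower, at 0.124 to 0.276 against 0.187 to 1.86 CPM; its call was lost on leaving out any 1 clone 1 library.

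**Figure D4:**
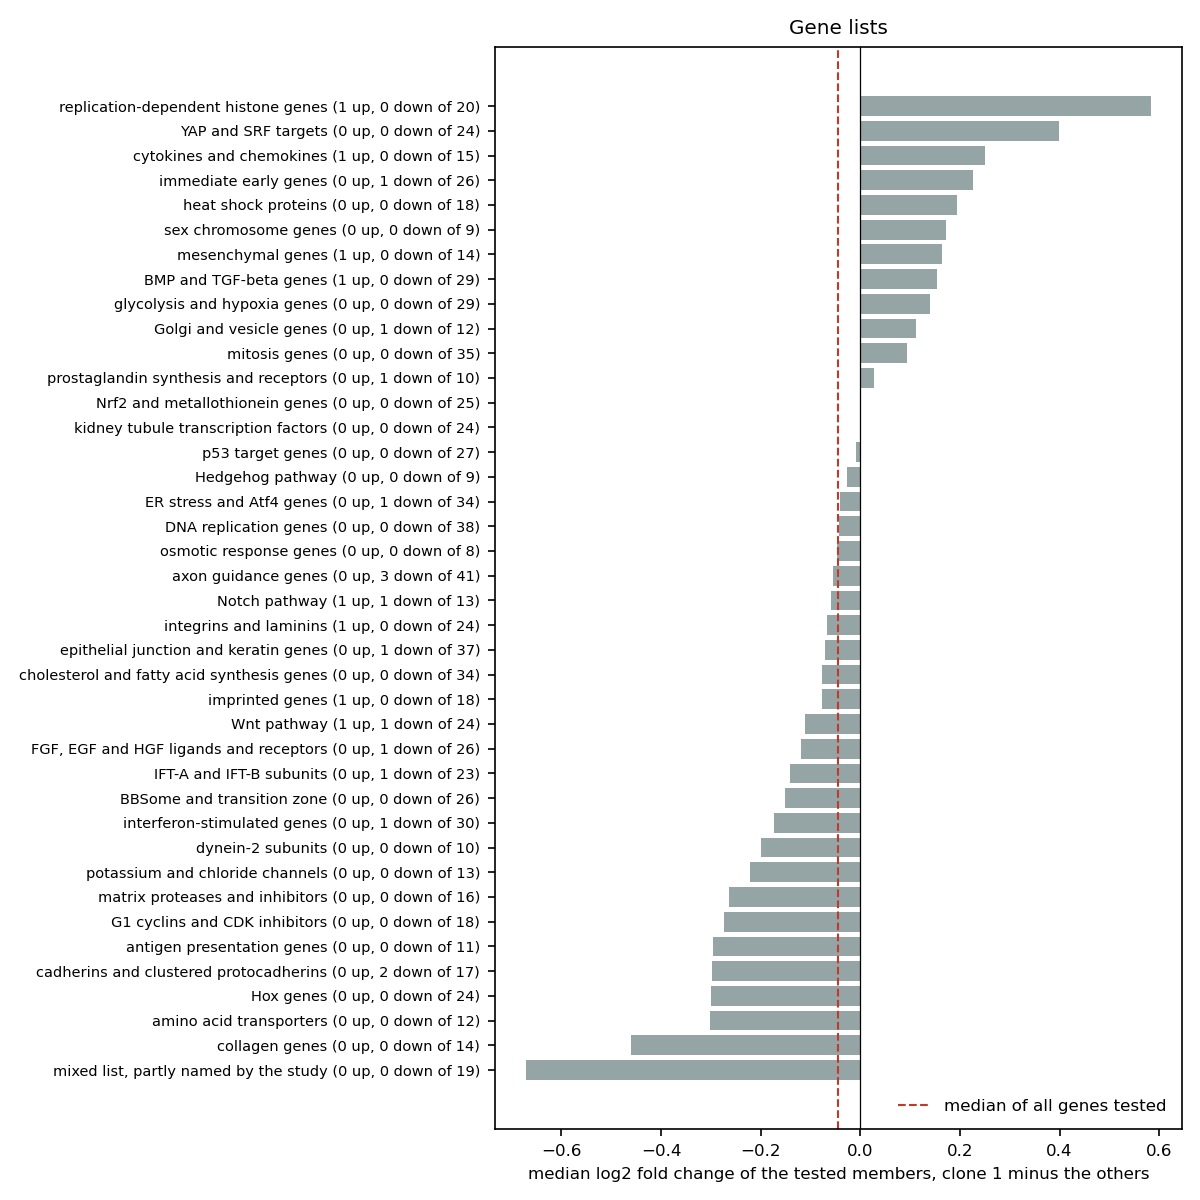
Bars give the median log2 fold change of the tested members of each of 40 lists, clone 1 minus the others, with the number called in each direction beside the name and the median of all genes (-0.045) as a dashed line. Replication-dependent histone genes (0.58) and YAP and SRF targets (0.40) are furthest to the right.

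Collagen genes had the median -0.46, with 0 of 14 positive and 0 called, beside 2.18% called of all genes. Of all 12327 genes tested, 5405 were positive. Without clone 3, 3 collagen genes were lower. Without clone 2, 2 were higher and 1 lower and the median was 0.026. A mixed list, partly named by the study, had a median of -0.67, with 2 of 19 positive and 0 called. With each clone as its own group 4 of its genes were higher and 4 lower, and without clone 3, 3 were lower. Hox genes, which keep positional identity, had -0.30, with 5 of 24 positive, and -0.054 without clone 2. Hoxb4, Hoxb5 and Hoxb6, 3 of the 24, had an edgeR adjusted p under 0.05, which 12.3% of all genes had. Hoxb5 was at 17.6, 14.7, 12.6 and 14.1 CPM against 18 to 29.1 CPM (median 23.8) (log2 fold change -0.66, edgeR adjusted p = 0.00707). Hoxb5os (chr11:96291037-96306910), annotated opposite Hoxb5 (chr11:96303512-96306121) and called lower at 2.29 to 3.16 against 3.27 to 14.2 CPM (a call lost on leaving out any 1 clone 1 library), spans that gene, and without a stated strand setting reads of both cannot be told apart. DNA replication, mitosis, p53 target and lipid synthesis lists held 0 calls of 38, 35, 27 and 34 tested genes, beside 2.18% of all genes. Their medians were -0.043, 0.094, -0.0092 and -0.077. Without clone 3, 2 p53 targets and 1 lipid synthesis gene were higher, and 1 p53 target was with each clone as its own group. The p53 median was 0.14 without clone AB, the replication median 0.068 without clone 2 and the lipid median 0.052 without clone 3.

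The ribosomal RNA precursor and a linker histone gene were higher in clone 1 than in the other control clones. Rn45s, the ribosomal RNA precursor, was at 4080, 4710, 6310 and 2630 CPM in clone 1 and 725 to 2420 CPM (median 1520) in the others, which is 0.249% to 0.598% and 0.0721% to 0.252% of the counts. After TMM scaling the groups did not overlap, while the shares of counts overlapped (R4 of clone 1 at 0.249% and R2 of AB at 0.252%; log2 fold change 1.53, SE 0.24, edgeR adjusted p = 0.000764). The mutant clones averaged 3340 (Wdr34, SD 441) and 4910 CPM (Wdr60, SD 3620). The clone 1 mean of 4430 CPM thus lay inside the range of the non-ciliated clones. Replication-dependent histone genes, whose messages lack a poly(A) tail, had a median of 0.58, with 19 of 20 positive; without clone AB the median was 0.36. Hist1h1e, a linker histone, was the 1 call of that list (5%, beside 2.18% of all genes; 4 were higher without clone AB), at 2.73, 3.4, 2.71 and 2.15 CPM against 0.575 to 1.97 CPM (median 1.07). The part of RNA selection or quality in these and the other results was not tested.

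Medians by chromosome differed between clone pairs. On chromosome 1 the median log2 fold change of 680 genes was 0.59 against clone 2, -0.0062 against AB and 0.0014 against clone 3. On chromosome 6 it was 0.52 against AB, -0.022 against clone 2 and -0.083 against clone 3. Chromosome 3 went opposite ways, at -0.27 against AB and 0.43 against clone 3. In these 3 cases clone 1 stood near the remaining clones while 1 other clone was apart, or lay between them. Of the calls against the pooled clones, which were 2.18% of all genes, chromosome 1 held 1 higher and 3 lower (0.588% of its genes), chromosome 6 held 1 and 2 (0.518%) and chromosome 19 held 1 and 16 of 456 (3.73%), with a median on the last of -0.157. By clone, the chromosome 19 median was -0.030 against AB, -0.107 against clone 2 and -0.274 against clone 3. Chromosomes 17 (-0.152) and 5 (-0.15) had like medians against the pooled clones.

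**Figure D5:**
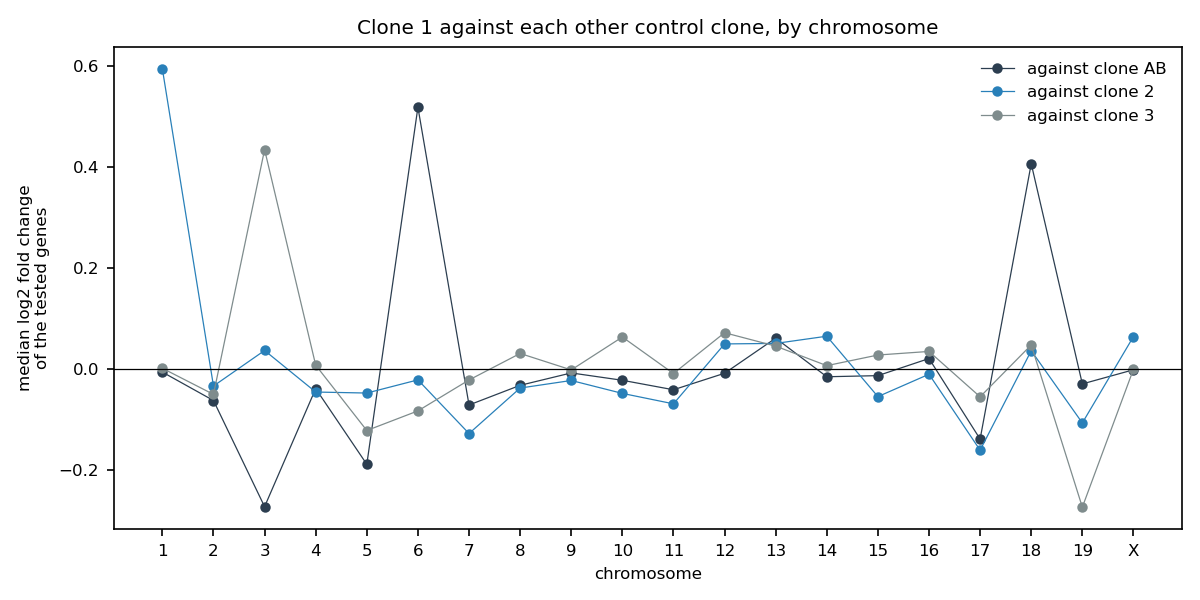
The y axis is the median log2 fold change of the tested genes of each chromosome (x axis; Y, with 4 tested genes, is not drawn), clone 1 against clone AB, 2 or 3; lines only join the points of a comparison. Chromosome 1 against clone 2, chromosomes 6 and 18 against AB and chromosome 3 against clone 3 stand out above the other medians drawn.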

How the data were processed

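RNA of the 16 non-ciliated control libraries was sequenced in the study. Per the labels and methods, the authors aligned reads to GRCm38/mm10 with Rsubread and then summarised reads by gene with featureCounts under R 3.4.4. The deposited values are raw counts, and strand and multi-mapping settings are not given in the sources used here. For the comparison, counts of 24421 symbols (24299 matched RefSeq, 99.5%) were read by sample label, filtered by filterByExpr (12327 kept), scaled by TMM and tested in edgeR 4.0.16 (R 4.3.3), with limma 3.58.1 and DESeq2 1.42.0 as alternatives. The other 3 clones formed 1 group, so their spread enters the dispersion. SE is the log2 fold change divided by the root of F.

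Named genes were the 15 largest differences in each direction among called genes without overlap and with at least 5 CPM in the higher group (unnamed and microRNA symbols left out), called list members, Wdr34 and Wdr60, a Golgi and vesicle list and a mixed list (both partly named by the study), and the most abundant member of each list. Members and lists were chosen with earlier results of these data known. Libraries at 15617398 to 21085697 counts leave a gene at 1 CPM with about 16.1 to 20.8 counts; intervals here cover library spread only. Alternatives were other filters, scaling, tools, groupings, a replicate block, and leaving out libraries or clones. Mutant and serum-starved libraries entered no test of clone 1. Figures were drawn with matplotlib 3.10.9.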

Additional observations from a re-analysis of the deposited data

Results flagged for a closer look

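Among the 49 genes named by size or by list, 196 sets of 4 libraries (1 gene in 1 clone) were searched for a library far from its 3 sisters by Dixon's ratio. 14 sets held one, where chance gives about 1 in 20 sets. In clone 1, Il1rl1 was 16.5 CPM in R4 (12.4 to 13.1 in the others), Ppbp 109 in R2 (97.5 to 99.4), Sh2d3c 2.1 in R2 (1.4 to 1.49) and Pdlim1 6.32 in R1 (4.87 to 5.07). Fgf9 was 0.05 CPM in R4 and Cdh13 0.0553 in R3 of clone 1, each a single count with 0 in the other 3 libraries. In clone 2, Fam65b was 8.28 CPM in R4 (4.98 to 5.52), Rapgefl1 6.25 in R3 (6.95 to 7.09), Rasgef1b 10.3 in R2 (8.74 to 8.98) and Fgf9 0.232 in R4 (0 in the others). In AB, Cdk14 was 18.8 CPM (31.2 to 33.6) and Zfhx4 7.97 CPM (23.8 to 25.2) in R1, the library that stood apart, and Ttc30a1 was 5.18 in R4 (4.31 to 4.42). In clone 3, Hist1h1e was 1.97 CPM in R4 (0.825 to 1.02).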

How the results depend on the processing

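With 33 higher and 236 lower genes as the reported counts, DESeq2 gave 52 and 388 (262 shared), keeping every gene with a count anywhere 50 and 214, a filter of 10 counts in every library 17 and 144, and each clone as its own group 282 and 383. With the clone as the unit both fits gave 0 and 0. An adjusted p under 0.05 alone gave 607 and 905, and under 0.01 with the size limit 113 lower. DESeq2's size factors (RLE) in edgeR gave 33 and 233. Leaving out 1 clone 1 library gave 24 to 27 higher and 148 to 160 lower, 1 other library 31 to 40 and 204 to 249, and 1 replicate number in all clones 17 to 25 and 80 to 173. Leaving out clone AB, 2 or 3 gave 70 and 293, 140 and 536, and 102 and 363. The causes of these shifts were not tested.

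The replicate numbers did not pair the libraries: deviations of same-numbered libraries correlated at -0.127 to 0.162, and 5 of 16 libraries correlated best with their own number. With a replicate block 25 genes were higher and 157 lower, 181 of the 182 shared with the 269. Of 70 called genes named or followed here, 0 changed direction in a setting that gave them a value. The filter of 10 counts in every library gave a value to 41 of them. The settings reuse the libraries in which the genes were picked, so a kept direction is no independent check. All 70 lost their call with the clone as the unit. Under the replicate block 14 lost it, and on leaving out 1 clone 1 library 19 to 22 did. Without replicate 1, 2, 3 or 4 in all clones, 22, 38, 31 and 30 lost their call. Ppbp, Bdh1, Fbxo17, Ddit3, Hsd11b2 and Hist1h1e were among those that lost it without replicate 2. Some genes that were not called changed sign, and Elmod1 and Scnn1a are examples. Elmod1 (log2 fold change -1.58) turned to 0.36 with each clone as its own group. It was 0.45 with the clone as a block in voomLmFit and 0.66 without clone 3. Scnn1a (0.27) turned to -0.019 without clone AB. Ctsh, Foxd1, Dcdc2a and Pitx1, also not called, were negative against the pooled clones but not against every single clone. Ctsh was positive against clone 2, Foxd1 and Dcdc2a against AB and clone 3, and Pitx1 against clones 2 and 3. Each was negative against the remaining clones. At the depth of these libraries, genes under 1 CPM rest on about 20 counts or fewer per library.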

Other observations

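Groups of genes by symbol, chosen after values were seen, had these values. Of 58 small nucleolar RNAs and their hosts, 7 were called lower and 0 higher, with 13 positive, beside 1.91% lower and 0.268% higher of all genes tested, and a median log2 fold change of -0.56. Snord52 was at 0.434 to 0.928 CPM in clone 1 against 1.3 to 4.61 CPM, and Snhg20 at 2.67 to 4.58 against 5.68 to 14.9 CPM. Of 319 Zfp genes, 6 were lower and 0 higher, or 1.88% lower (median -0.17), while 92 ribosomal protein genes had 1 higher and 0 lower (median 0.073).

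Further lower genes were the following. Thra, a thyroid hormone receptor, was at 7.07, 6.99, 7.08 and 7.9 CPM in clone 1 against 13 to 27.7 CPM (median 15.9), without overlap (log2 fold change -1.38, edgeR adjusted p = 0.00212). Mxd4, a Max-binding repressor that opposes Myc, was at 4.65, 3.59, 4.48 and 4.6 CPM against 7.1 to 12.6 CPM (median 10), and the clock gene Per3 at 6.57, 5.69, 6.86 and 6.35 CPM against 9.96 to 23.3 CPM (median 12.8), both without overlap. Tsc22d3, a glucocorticoid-induced gene, was at 6 to 8.46 against 8.52 to 24.1 CPM and Pink1, a mitochondrial kinase, at 5.05 to 6.32 against 7.6 to 19.9 CPM. All 5 were highest in clone 2 among the controls, and Per3, Tsc22d3 and Pink1 lost their call without that clone. Pink1 also lost it on leaving out any 1 clone 1 library, and Tsc22d3 without R1, R2 or R4. These genes were picked after their values were seen, and no list of them was tested.

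Of 12 genes on a list of Golgi and vesicle genes, Myo5c, a myosin motor, was the 1 called (8.33%, beside 2.18% of all genes). Without clone AB 3 genes of that list were lower, with DESeq2 2 and under the replicate block 0. Myo5c was lower at 0.558, 0.495, 0.332 and 0.4 CPM against 0.832 to 9.67 CPM (median 1.57). AB was highest at 7.61 ± 1.52 CPM, and the mutant clones were at 0 and 0.134 CPM. Its call was lost in 11 of 30 settings, among them leaving out any 1 clone 1 library and the replicate block. Rab6b, a Golgi GTPase, was at 10.1, 8.54, 9.07 and 9.84 CPM in clone 1 and 7.9 to 33.7 CPM (median 16.2) in the others, with 32.3 ± 1.34 CPM in clone 2 (log2 fold change -1.09, edgeR adjusted p = 0.0551, not called).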
